A study of Mus musculus with 6 samples.

Results

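A set of 10 genes that control exit from and entry into the cell cycle were followed in RNA captured from quiescent mouse neural progenitor cells. The genes were taken by name from the deposited table of 55416 gene IDs, and 10 of 10 were found. The set holds the D-type cyclins Ccnd1, Ccnd2 and Ccnd3, their kinases Cdk4 and Cdk6, the inhibitors Cdkn1b, Cdkn2c and Cdkn2d, and the pocket proteins Rb1 and Rbl2. The progenitors, of embryonic brain origin, were kept quiescent in DMEM/F12 with N2, B27, 10 ng/ml FGF2 plus 20 ng/ml BMP4, and this medium was common to both groups. The EU group received ethynyluridine, a uridine analogue that is incorporated into RNA as it is transcribed, at 250 µM on day 1 of quiescence. Cells were harvested on day 8, and RNA still carrying the analogue was linked to biotin and captured on streptavidin. The PBS group received PBS and went through the same capture, which measures what binds without label. Each group had 3 libraries. Whether these came from separate cultures is not stated, and all p-values therefore reflect library-to-library spread alone, possibly technical. The labels name no cell line, strain or animal age.

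D-type cyclins bind and activate Cdk4 and Cdk6 when growth factors are present, and the active kinases phosphorylate the retinoblastoma protein and its relatives. Unphosphorylated pocket proteins hold E2F transcription factors silent, so that genes for DNA synthesis stay off. The protein of Cdkn1b blocks cyclin-CDK complexes broadly, whereas those of Cdkn2c and Cdkn2d bind Cdk4 and Cdk6 and keep D cyclins away. Rbl2 encodes the pocket protein that, with E2F4 and the MuvB core, forms the DREAM repressor of quiescent cells, and Rbl1 encodes its relative, which is itself an E2F target in cycling cells.

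The EU libraries held 9564856 to 26479031 counts and the PBS libraries 413181 to 729649. All levels below are CPM, counts scaled to library size, with TMM factors that correct for library composition. On this scale 3 counts equal between 0.105 and 0.377 CPM with EU, and between 3.84 and 6.33 CPM with PBS. All 8 neural progenitor markers had counts in both groups, with Sox2 at 313 ± 56.7 CPM in EU and 344 ± 53.4 in PBS and Nes at 72.6 ± 2.75 and 36.9 ± 28.6 (SD, n = 3 each). Of the microglia markers, Aif1, Csf1r, Cx3cr1 and C1qa were at 0 in all 6 libraries and Ptprc had counts in PBS replicate 1 only. EU replicate 2 stood apart from the other EU libraries: 14 of 15 proliferation markers were more than 2-fold above both of them there, against 3.41% of the 12477 tested genes. EU replicate 1 held 1.53% and EU replicate 3 held 0.024% of tested genes at such a distance. The summed proliferation markers measured 305.0, 1226 and 310 CPM in EU replicates 1 to 3 and 164, 291 and 268 CPM in PBS replicates 1 to 3. Summed astrocyte markers were lowest in that same library, where they reached 3993 CPM, with 6928 CPM in EU replicate 1 and 5265 CPM in EU replicate 3. The PBS libraries held 7714 to 15740 CPM of them, so every EU library lay below every PBS library for this sum. Without Gfap the other 5 markers summed to 6249, 3914 and 4992 CPM in EU replicates 1 to 3 and 8354, 6430 and 6137 CPM in PBS replicates 1 to 3, and the groups overlapped. Of the 6 markers, Gfap, Aqp4 and Gja1 were lower in every EU library, while S100b (log2 fold 0.76), Aldh1l1 (0.21) and Slc1a3 (-0.02) overlapped. Oligodendrocyte lineage markers summed to 1092 to 1666 CPM in EU and 677 to 887 CPM in PBS, neuron markers to 534 to 661 and 555 to 797 CPM, and vascular and fibroblast markers to at most 2.73 and 3.16 CPM. Their part in the results below was not tested. In such pulldowns of whole cultures, fewer cells of a type and less RNA per cell cannot be told apart.

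Of the 10 genes, 3 (Ccnd2, Cdkn2c and Cdkn2d) were more than 2-fold higher in EU replicate 2 than in the other EU libraries. Of all tested genes, 3.41% were. The promoters of 2 of the 3 members are shown here. Those of Rbl1, also high in EU replicate 2, and of Rbl2, which was not, are shown with them. The sequences are the 250 bases upstream of the start in RefSeq (build GRCm38.p6), matched for 7 of the 10 genes, and those of Ccnd1, Ccnd2 and Rb1 are not used here. The first of 2 listed Cdkn2c starts lies at chr4:109666757-109667006 on the minus strand, Cdkn2d at chr9:21291210-21291459 on the minus strand, Rbl1 at chr2:157204535-157204784 on the minus strand and Rbl2 at chr8:91069807-91070056 on the plus strand. Capitals mark an E2F word in Rbl1 and a CHR word in Rbl2.
Cdkn2c: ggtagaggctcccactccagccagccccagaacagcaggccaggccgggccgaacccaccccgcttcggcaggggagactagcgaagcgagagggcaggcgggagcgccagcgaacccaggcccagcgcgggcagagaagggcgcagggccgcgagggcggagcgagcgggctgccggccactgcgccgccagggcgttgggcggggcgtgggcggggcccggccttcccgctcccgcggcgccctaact
Cdkn2d: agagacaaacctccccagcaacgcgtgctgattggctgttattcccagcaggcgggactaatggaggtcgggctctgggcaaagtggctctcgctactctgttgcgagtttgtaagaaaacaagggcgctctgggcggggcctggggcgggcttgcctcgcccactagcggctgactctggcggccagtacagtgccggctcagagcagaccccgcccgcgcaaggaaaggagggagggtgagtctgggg
Rbl1: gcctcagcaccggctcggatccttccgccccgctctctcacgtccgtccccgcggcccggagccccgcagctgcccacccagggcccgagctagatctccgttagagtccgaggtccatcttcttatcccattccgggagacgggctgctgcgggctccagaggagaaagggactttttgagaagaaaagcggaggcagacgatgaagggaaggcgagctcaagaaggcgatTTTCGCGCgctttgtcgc
Rbl2: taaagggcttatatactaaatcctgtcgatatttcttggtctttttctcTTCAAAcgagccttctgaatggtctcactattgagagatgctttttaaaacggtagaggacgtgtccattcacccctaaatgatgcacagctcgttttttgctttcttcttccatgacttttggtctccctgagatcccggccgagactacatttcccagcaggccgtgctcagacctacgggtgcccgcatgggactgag
The E2F words searched on both strands were TTTCCCGC, TTTGGCGC, TTTCGCGC and GGCGGGAA, of which the first and the reverse of the last overlap in most of their letters. Any of the 4 words stood in 2.92% of the 32851 promoters of this length. In Rbl1 the word TTTCGCGC, present in 0.256% of promoters, began at position -18 from the start. None of the 4 words lay in the windows of the 7 listed members. Besides the members, only the promoter of Rbl1 was examined by name. Rbl1 is among 12 of 35 tested genes of the wider list below that were more than 2-fold above both other EU libraries in EU replicate 2. The match is therefore not a result about the genes high in that library. The CHR word TTTGAA, an element of cell cycle promoters, was present in 16% of promoters and began at position -201 of Rbl2 on the reverse strand. A match describes letters in a window and not binding.

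No member passed the test between EU and PBS (edgeR quasi-likelihood, Benjamini-Hochberg adjusted p over all 12477 tested genes below 0.05). All 10 members were tested. Each library is scaled to its own total, so a fold compares shares of the captured RNA and not amounts captured. A log2 fold near or below 0 therefore does not show that a gene was not captured above background. Whether library depth follows the amount captured was not tested. Over all tested genes, 0% were called higher in EU and 0.024% lower. DESeq2, limma-voom and limma-voom with group weights also called 0 of the 10. Over all tested genes they called 3.95%, 1.78% and 5.79% higher and 3.49%, 0.2% and 0.297% lower. At an unadjusted p below 0.05, 2 members lay higher in EU (Ccnd2 and Cdkn2c) where 13% of all tested genes did, and 1 lay lower (Cdk4) where 4.26% did. The log2 fold was positive for 3 members and negative for 7, with a median of -0.20, while 56.5% of all tested genes were positive with a median of 0.15. The 8865 genes with a mean of at least 10 CPM, all members among them, had a median of -0.024 in their own fit. Of these, 519 lay higher and 463 lower at an unadjusted edgeR p below 0.05. All EU libraries lay above all PBS libraries for 2 of 10 members, Ccnd1 and Cdkn2c, close to the 21.8% of all tested genes. None lay wholly below, as 6.4% of all tested genes did.

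**Figure D1:**
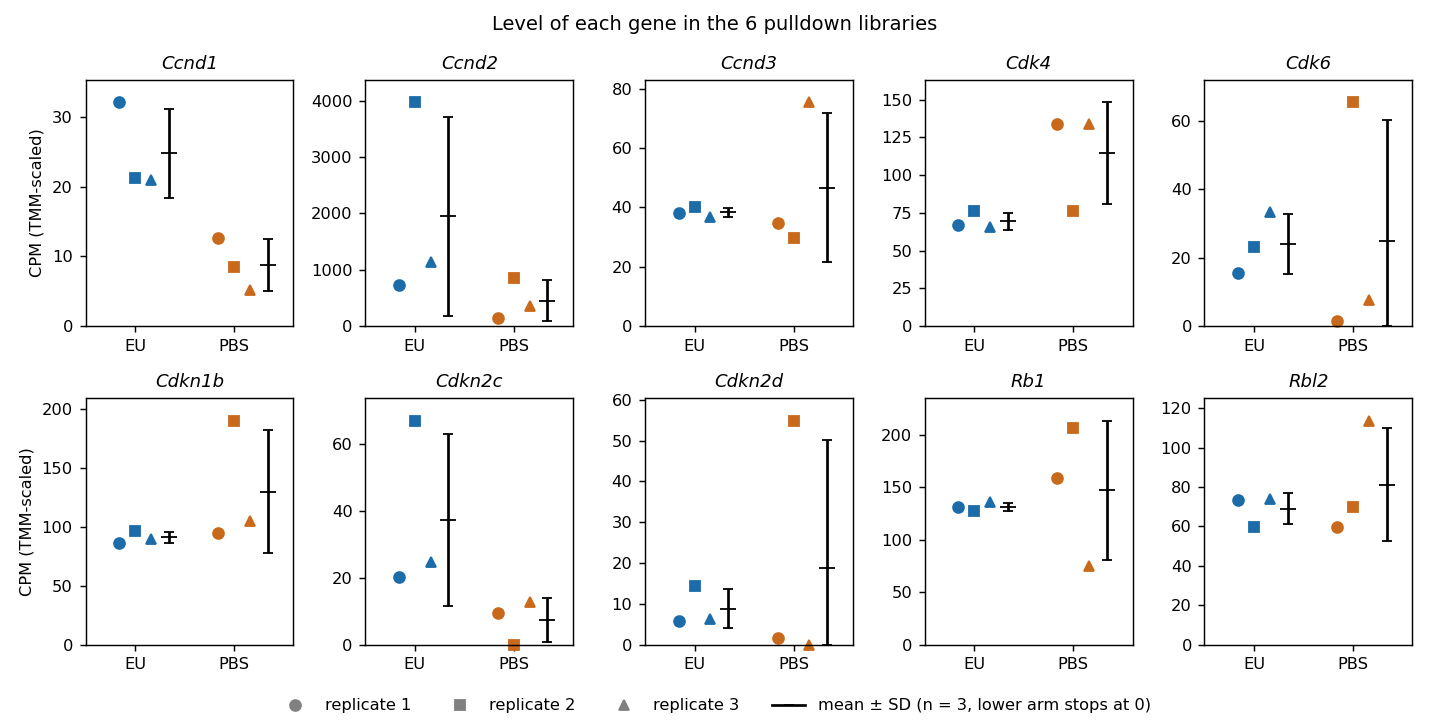
TMM-scaled CPM (vertical axis, linear from 0, own scale per gene) of the 10 genes in 3 EU (blue) and 3 PBS (orange) libraries, with replicate numbers as symbols and black bars for the mean ± SD, whose lower arm stops at 0. Rb1 sits between 128 and 136 CPM in the EU libraries, whereas Ccnd2 spans 727 to 3972 CPM with EU replicate 2 on top.

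Among the D cyclins, Ccnd2 was by far the most abundant and the most variable. Its protein is the D cyclin known for progenitor proliferation in the developing forebrain and cerebellum. Ccnd2 (ENSMUSG00000000184) measured 727, 3972 and 1144 CPM in EU replicates 1 to 3 and 137, 846 and 350 CPM in PBS replicates 1 to 3. The replicate numbered 2 was highest in each group, and the lowest EU library lay below the highest PBS library, so the groups overlapped. The means were 1948 ± 1766 and 445 ± 364 CPM (SD, n = 3), and the log2 fold was 2.14 with an SE of 0.78 (edgeR adjusted p = 0.196). Without EU replicate 2 the log2 fold was 1.02 (edgeR adjusted p = 0.898), and without PBS replicate 2 it was 3.06 (edgeR adjusted p = 0.112). Ccnd2 passed under 2 other settings. With no low-count filter its log2 fold was 2.29 (edgeR adjusted p = 0.0468), in a fit that called 121 of 27659 genes higher. With a replicate block it was 2.11 ± 0.23 (SE; edgeR adjusted p = 2.793e-16), in a fit that called 148 of 12477 genes higher. The block leaves few libraries to estimate spread, so this p-value rests largely on spread pooled over genes and not on Ccnd2 alone. Whether the replicate numbers mark pairs is not known. By counts, Ccnd2 was the gene ranked 14 in EU replicate 2, 66 in EU replicate 3 and 119 in EU replicate 1, and in PBS its ranks were 1063, 63 and 257. Mki67, the proliferation marker, measured 96.0, 435 and 94.9 CPM in EU replicates 1 to 3 and 25.2, 92.9 and 32.0 CPM in PBS replicates 1 to 3. Top2a, a topoisomerase of dividing cells, measured 71.6, 315 and 78.4 CPM in EU and 39.5, 82.3 and 74.2 CPM in PBS. Both markers were thus also highest in the replicate numbered 2 of each group. Over the list, 15 of 15 proliferation markers were highest in EU replicate 2 among EU libraries and 5 of 15 were highest in PBS replicate 2 among PBS libraries. Their part in the Ccnd2 values was not tested.

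Ccnd1, the D cyclin induced by mitogens in many cell types, was low and did not follow Ccnd2. Ccnd1 (ENSMUSG00000070348) measured 32.2, 21.2 and 21.0 CPM in EU replicates 1 to 3 and 12.6, 8.44 and 5.11 CPM in PBS replicates 1 to 3. Every EU library lay above every PBS library, and EU replicate 2 was not the highest. The PBS values rest on 8, 4 and 4 counts, whose exact 95% Poisson intervals reached up to 24.9, 21.6 and 13.1 CPM and so overlapped the EU range in 2 libraries. The log2 fold was 1.51 ± 0.71 (SE; edgeR adjusted p = 0.332). Ccnd1 shares exonic positions with a gene on the opposite strand, LTO1, which held 35, 1 and 16 counts in PBS replicates 1 to 3. Because the strand setting of the counting is not given in the sources used here, reads of the 2 genes may not be separable.

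Ccnd3, the third D cyclin, was nearly constant under EU. Ccnd3 (ENSMUSG00000034165) measured 38.1, 40.0 and 36.7 CPM in EU replicates 1 to 3 and 34.7, 29.6 and 75.4 CPM in PBS replicates 1 to 3. EU libraries lay inside the PBS range (log2 fold -0.30 ± 0.47 SE, edgeR adjusted p = 0.834), and without PBS replicate 3 the fold turned to 0.31. A processed pseudogene copy, Ccnd3-ps, took 0, 4 and 3 counts in EU and none in PBS.

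Within a library, the share of each D cyclin does not depend on scaling between libraries. Counts were divided by exonic length for this purpose. Ccnd2 made up 87.4%, 97.9% and 93.4% of the summed D cyclin counts per kilobase in EU replicates 1 to 3 and 68.7%, 94.6% and 79.4% in PBS replicates 1 to 3. The mean shares were 92.9% ± 5.28 and 80.9% ± 12.99 (SD, n = 3), and the groups overlapped because PBS replicate 2 exceeded EU replicates 1 and 3. As shares of raw counts, the exact 95% binomial intervals were 98.4% to 98.6% in EU replicate 2 and 65.5% to 82.0% in PBS replicate 1, covering counting error only. Ccnd1 held 7.72%, 1.04% and 3.43% per kilobase in EU replicates 1 to 3. Shares within a family are not independent, so that of Ccnd1 falls where that of Ccnd2 rises. Ccnd1 itself measured 21.2 and 21.0 CPM in EU replicates 2 and 3. Its PBS shares were 12.6%, 1.89% and 2.31%.

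**Figure D2:**
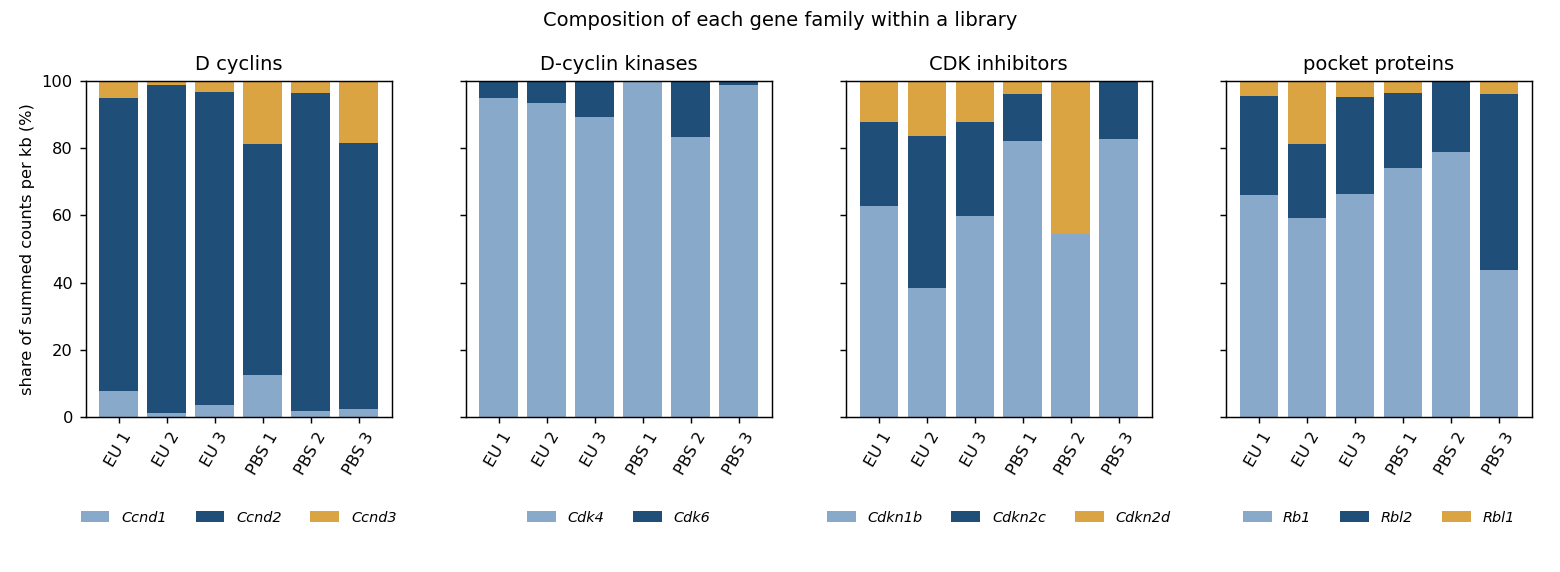
Share (%, vertical axis from 0 to 100) of each gene in the summed counts per kilobase of its family, for 6 libraries (EU 1 to 3 and PBS 1 to 3 are the replicates). Ccnd2 takes 68.7% to 97.9% of the D cyclins, and Rbl1 takes 18.7% of the pocket proteins in EU replicate 2 and under 5% elsewhere.

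Of the D cyclin kinases, Cdk4 was the more abundant per length and Cdk6 rested on few PBS counts. Cdk4 (ENSMUSG00000006728) measured 67.0, 76.0 and 65.3 CPM in EU replicates 1 to 3 and 134, 76.0 and 134 CPM in PBS replicates 1 to 3. PBS replicate 2 sat at the level of the highest EU library, while the other PBS libraries lay well above all EU libraries. The log2 fold was -0.73 ± 0.31 (SE; unadjusted p = 0.0449, edgeR adjusted p = 0.274). It was negative with every library left out, at -0.89 to -0.55 (edgeR adjusted p at least 0.0955). Cdk4 overlaps Tspan31, a tetraspanin gene on the opposite strand, which held 23, 5 and 33 counts in PBS against 85, 36 and 105 for Cdk4. Cdk6 (ENSMUSG00000040274) measured 15.6, 23.0 and 33.2 CPM in EU replicates 1 to 3 and 1.58, 65.4 and 7.67 CPM in PBS replicates 1 to 3. Most of its PBS level came from PBS replicate 2, with 31 counts against 1 and 6. Its log2 fold was -0.01 ± 1.07 (SE; edgeR adjusted p = 0.998) and turned to 2.38 without PBS replicate 2 (edgeR adjusted p = 0.125). Per kilobase Cdk4 made up 92.6% ± 2.82 of the pair in EU and 93.9% ± 9.18 in PBS (SD, n = 3).

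The inhibitors split into a steady gene and a pair that followed EU replicate 2. Cdkn1b (ENSMUSG00000003031), whose protein holds cells in quiescence by binding cyclin-CDK complexes, measured 86.4, 96.2 and 89.8 CPM in EU replicates 1 to 3 and 94.7, 190.0 and 105 CPM in PBS replicates 1 to 3. The EU libraries differed little, and PBS replicate 2 was the single high value (log2 fold -0.51 ± 0.32 SE, edgeR adjusted p = 0.514; -0.08 without PBS replicate 2).

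Cdkn2c (ENSMUSG00000028551) measured 20.2, 67.0 and 24.6 CPM in EU replicates 1 to 3. In PBS replicates 1 to 3 it measured 9.47, 0 and 12.8 CPM, from 6, 0 and 10 counts. EU replicate 2 was 2.73 times the next EU library, and all EU libraries lay above PBS. The exact 95% Poisson intervals of PBS replicates 1 and 3 reached 20.6 and 23.5 CPM, past EU replicate 1. For the count of 0 in PBS replicate 2 that interval reached 7.79 CPM, and the floor of 3 counts equals 6.33 CPM there. The log2 fold was 2.26 ± 0.98 (SE; unadjusted p = 0.0498, edgeR adjusted p = 0.289), and without EU replicate 2 it was 1.48 (edgeR adjusted p = 0.944).

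Cdkn2d (ENSMUSG00000096472) measured 5.78, 14.3 and 6.33 CPM in EU replicates 1 to 3, with EU replicate 2 at 2.25 times the next EU library. Its PBS values were 1.58, 54.9 and 0 CPM, from 1, 26 and 0 counts, so a single PBS library held nearly all of it. The log2 fold was -1.04 ± 1.48 (SE; edgeR adjusted p = 0.810), and it was 3.67 without PBS replicate 2 (edgeR adjusted p = 0.133). Per kilobase, Cdkn1b made up 62.9%, 38.3% and 59.96% of the 3 inhibitors in EU replicates 1 to 3, and Cdkn2c 24.9%, 45.2% and 27.8%. EU replicate 2 was therefore the only one of the 6 libraries in which Cdkn2c exceeded Cdkn1b per length. In PBS, Cdkn1b made up 82.1%, 54.5% and 82.9%.

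Of the 10 genes Rb1 varied least between EU libraries. Rb1 (ENSMUSG00000022105), encoding the retinoblastoma protein, measured 131, 128 and 136 CPM in EU replicates 1 to 3, a coefficient of variation of 3.08%. The median coefficient over all tested genes was 14.7% in EU and 77.7% in PBS. In PBS replicates 1 to 3 Rb1 measured 159, 207 and 75.4 CPM, on both sides of the EU values (log2 fold -0.15 ± 0.36 SE, edgeR adjusted p = 0.896). Rbl2 (ENSMUSG00000031666) measured 73.4, 59.96 and 74.0 CPM in EU replicates 1 to 3 and 59.98, 69.7 and 114 CPM in PBS replicates 1 to 3. It was lowest in EU replicate 2 among the EU libraries (log2 fold -0.24 ± 0.34 SE, edgeR adjusted p = 0.811). Rbl1, their relative, went the other way within EU, with 8.54, 40.1 and 9.72 CPM in EU replicates 1 to 3. In PBS it had 7.89, 0 and 6.39 CPM (log2 fold 1.97 ± 1.15 SE, edgeR adjusted p = 0.467). Its share of the 3 pocket protein genes per kilobase was 18.7% in EU replicate 2 and 4.33% and 4.78% in EU replicates 1 and 3.

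**Figure D3:**
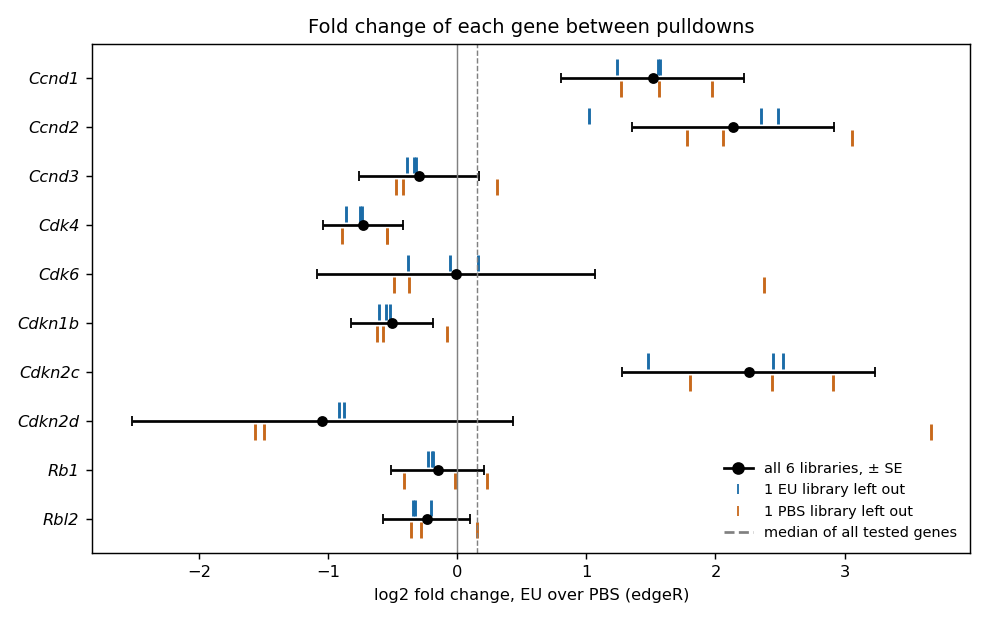
Log2 fold change of EU over PBS for the 10 genes (black, all 6 libraries, ± SE; dashed line, median of all tested genes at 0.15), with ticks for fits that leave out 1 EU (blue, above) or 1 PBS (orange, below) library. The tick for Cdkn2d without PBS replicate 2 stands at 3.67 and that for Cdk6 at 2.38, far from the values with all libraries.

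Ordered by level per kilobase of exon in EU, Ccnd2 led at 207 ± 188 CPM per kilobase. Rb1 at 21.9 ± 0.67, Cdk4 at 21.4 ± 1.78, Cdkn1b at 19.95 ± 1.09 and Cdkn2c at 13.9 ± 9.63 CPM per kilobase came next, and each overlapped its neighbour in range. Then followed Rbl2 at 9.14 ± 1.05, Cdkn2d at 5.58 ± 3.01, Ccnd1 at 5.26 ± 1.36 and Ccnd3 at 4.36 ± 0.19, again with overlapping neighbours. Cdk6 came last at 1.71 ± 0.63 CPM per kilobase, and its range met none of the others (SD, n = 3 each). Only the steps below Ccnd2 and above Cdk6 were wider than the ranges. In PBS the order began with Ccnd2 at 47.3 ± 38.7, Cdk4 at 35.3 ± 10.3, Cdkn1b at 28.5 ± 11.5 and Rb1 at 24.5 ± 11.1 CPM per kilobase. Each neighbour there overlapped the next.

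The wider G1 and S phase network was read from a further list of 39 genes, of which 38 were in the table and 35 were tested. None passed in either direction (smallest edgeR adjusted p = 0.121). At an unadjusted p below 0.05, 3 lay higher and 0 lower, where 13% and 4.26% of all tested genes did. These 3 were E2f2, E2f7 and E2f8, named after their values were seen. They had no PBS count and entered the test through the EU group alone, so their p-values carry no weight of their own. The fold was positive for 21 and negative for 14, against 56.5% positive over all tested genes, and the median log2 fold was 0.31. The 3 tested genes with no PBS count lay above that median also at their lower bounds, so setting them there could not move it. All EU libraries lay above all PBS libraries for 10 of the 35 and below for 2, near the 21.8% and 6.4% of all tested genes. DESeq2 called 2 of the 35 higher, again E2f7 and E2f8, and 1 lower, Cdkn2b, near its 3.95% and 3.49% of all tested genes.

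The EU libraries again differed most in replicate 2. In EU replicate 2, 12 of its 35 tested genes were more than 2-fold above both other EU libraries, as were 3.41% of all tested genes. Ccna2, the cyclin of S phase and G2, measured 21.7, 90.9 and 21.3 CPM in EU replicates 1 to 3 and 14.2, 14.8 and 0 CPM in PBS replicates 1 to 3 (log2 fold 2.27 ± 1.11 SE, edgeR adjusted p = 0.355). Foxm1, a transcription factor of the G2 program, measured 26.0, 89.5 and 26.4 CPM in EU and 22.1, 0 and 17.9 CPM in PBS. Ccne1, the E cyclin that acts after the D cyclins, was low, at 3.39, 9.60 and 2.48 CPM in EU and 3.16, 0 and 0 CPM in PBS. Each of these was highest in EU replicate 2 among the EU libraries. E2f7 and E2f8, atypical E2F repressors outside the naming rule and chosen after their values were seen, had no PBS count. E2f7 measured 6.41, 28.1 and 3.71 CPM in EU replicates 1 to 3, at least 8.01-fold higher on average than the floor of 3 counts over the PBS group, and at least 3.19-fold higher without EU replicate 2. E2f8 measured 7.04, 32.2 and 5.41 CPM there, at least 9.37-fold higher against the same floor, and at least 3.92-fold higher without EU replicate 2. On the list 5 genes had no PBS count, and E2f7 and E2f8 had the largest bounds of these. For E2f2, Ccne2 and Mycn, also outside the naming rule, the EU mean was 3.53, 4.18 and 0.80 times that floor. Without EU replicate 2 it was 1.64, 1.08 and 0.57 times the floor.

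E2f4, Lin52 and Dyrk1a, which are linked to DREAM, differed little between EU libraries, whereas the MuvB subunit Lin9 differed more. E2f4, the E2F partner of Rbl2, measured 17.7, 20.5 and 21.3 CPM in EU and 18.9, 4.22 and 28.1 CPM in PBS. Lin52, a subunit of the MuvB core, measured 19.6, 18.6 and 19.4 CPM in EU replicates 1 to 3, and its PBS values were 25.2, 10.6 and 0 CPM. Dyrk1a, the kinase that phosphorylates Lin52 and promotes DREAM assembly, measured 101, 115 and 103 CPM in EU and 80.5, 69.7 and 99.7 CPM in PBS (log2 fold 0.34 ± 0.27 SE, edgeR adjusted p = 0.605). For these 3 genes no EU library stood far from the others. Lin9 measured 6.78, 13.2 and 5.50 CPM in EU replicates 1 to 3 and 25.2, 6.33 and 16.6 CPM in PBS replicates 1 to 3, with EU replicate 2 the highest of the EU libraries. Tfdp1, a dimer partner of E2F proteins, was also highest there, at 31.5, 52.7 and 30.6 CPM in EU replicates 1 to 3.

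Other inhibitors and Myc gave a mixed picture. Cdkn1a, the p53-induced CDK inhibitor, measured 81.0, 147 and 126 CPM in EU and 226, 173 and 37.1 CPM in PBS, with overlapping groups (edgeR adjusted p = 0.874). Cdkn2b, an inhibitor of Cdk4 and Cdk6, was lower in every EU library, at 6.91, 5.50 and 6.10 CPM against 42.6, 16.9 and 8.95 CPM in PBS replicates 1 to 3. It did not pass (log2 fold -1.88 ± 0.84 SE, edgeR adjusted p = 0.303), and DESeq2 gave an adjusted p of 0.0492. Cdkn1c, an imprinted relative of Cdkn1b, was hardly present, with 10, 20 and 14 counts in EU and 1, 0 and 4 in PBS. Myc, a transcription factor with a short-lived mRNA, measured 30.5, 13.7 and 14.7 CPM in EU and 31.6, 46.4 and 33.2 CPM in PBS. Its EU values lay below all PBS values (log2 fold -0.91 ± 0.57 SE, edgeR adjusted p = 0.505), and EU replicate 1 came close to PBS replicate 1.

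**Figure D4:**
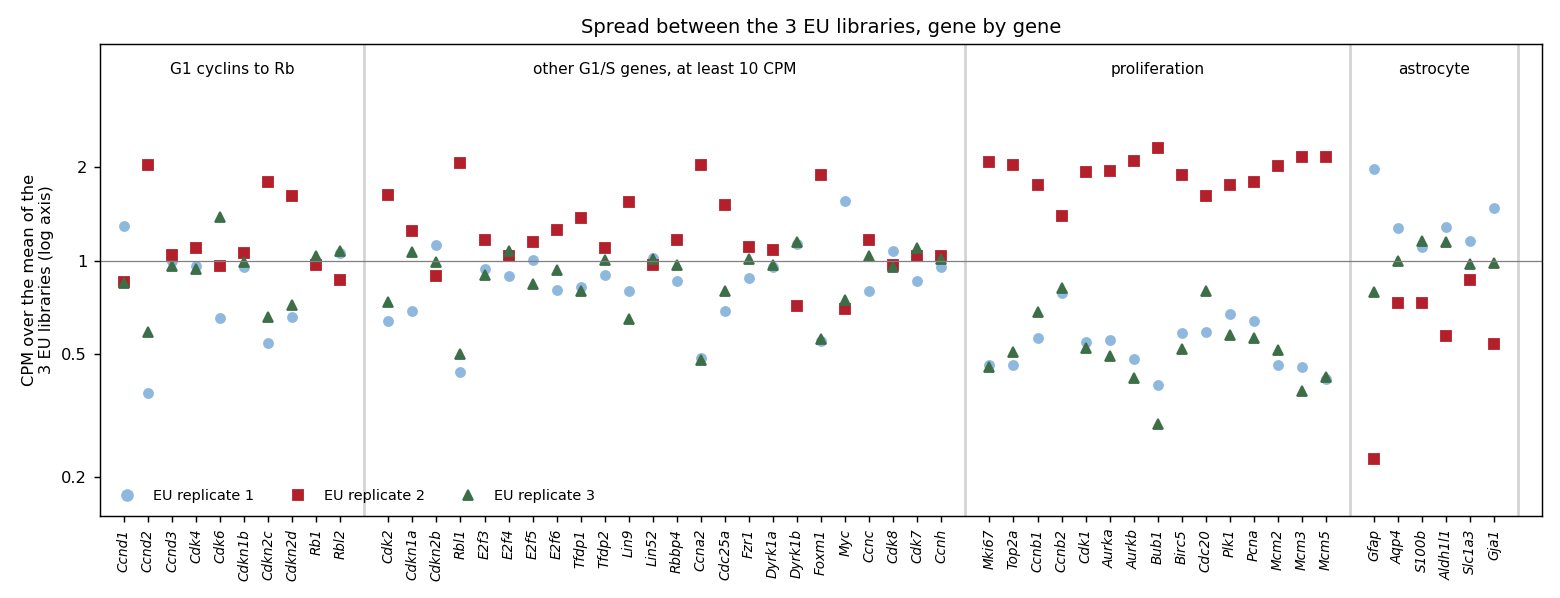
Level of each gene in EU replicates 1 (circle), 2 (square) and 3 (triangle), divided by the mean of the 3 (log axis), for the 10 genes, the 24 further G1 and S phase genes with at least 10 CPM, and proliferation and astrocyte markers. EU replicate 2 is the highest for Ccnd2, Cdkn2c and Cdkn2d and for 15 of 15 proliferation markers, and Rb1, Cdkn1b and Ccnd3 lie close to 1 in every library.

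Of the 10 members, Ccnd2, Cdkn2c and Cdkn2d were more than 2-fold above both other EU libraries in EU replicate 2, as were 3.41% of all tested genes. None was in EU replicate 1 or 3, where 1.53% and 0.024% of all tested genes were. Ccnd1, Cdk6, Rb1 and Rbl2 were not highest in EU replicate 2. Gfap, the astrocyte filament gene, measured 680, 78.5 and 272 CPM in EU replicates 1 to 3 and 7387, 1834 and 1578 CPM in PBS replicates 1 to 3, so it was lowest in the library where Ccnd2 was highest. Of the 6 astrocyte markers, 0 were highest in EU replicate 2, and none was at 0 in either group. Their part in the spread of Ccnd2, Cdkn2c and Cdkn2d was not tested.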

How the data were processed

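Per the labels, DNase-treated RNA was captured and made into total RNA libraries. The authors deposited whole-number read counts per Ensembl gene ID, not normalized. Tools listed in the submitters' processing notes are STAR 2.7.10b, featureCounts 2.0.1, UMI-tools 1.1.2 and bcl2fastq 2.20.0, with build GRCm39, without roles. How strand and multi-mapping reads were handled is not given there.

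Symbols matched 52083 of 55416 IDs and exonic lengths came from GENCODE M21, on an earlier build, GRCm38, whose gene coordinates are not printed and served only to find overlapping genes. Of the members, 7 share exonic positions with an opposite-strand gene there, so their values are uncertain to that extent. Groups were compared by quasi-likelihood in edgeR 4.0.16 (R 4.3.3) with TMM factors, filterByExpr and group as the only term, Benjamini-Hochberg over 12477 genes. The SE is the log2 fold divided by the square root of F. Intervals (95%) and floors of 3 counts cover counting error only. Alternatives used DESeq2 1.42.0, limma 3.58.1, other scalings and filters, a replicate block and each library left out. Members and lists were chosen with earlier results of these data known. Named besides the members were listed G1 and S phase genes of at least 10 CPM over the 6 libraries, Cdkn1a, Cdkn1c, Ccne1, Mki67, Top2a, Sox2, Nes and Gfap; others are said to be chosen later. Of the further G1 and S phase list, Lin54 is not analysed here.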

Additional observations from a re-analysis of the deposited data

How the results depend on the processing

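None of the 10 genes was called under DESeq2, limma-voom (with and without group weights), other scalings, a stricter filter or any left-out library. Ccnd2 was called under 2 other settings. Without a low-count filter its log2 fold was 2.29 (edgeR adjusted p = 0.0468), and with a replicate block it was 2.11 ± 0.23 (SE; edgeR adjusted p = 2.793e-16). Same-numbered EU and PBS libraries correlated in their deviations from the group means at 0.0741, 0.0505 and 0.0338 over 12477 genes, and at 0.119, 0.0943 and 0.0301 over the 7286 genes with at least 30 PBS counts. Not every pair passed 0.1 in either set, so the numbers were not taken as pairs, although each EU library correlated best with its own number. The median coefficient of variation over all tested genes was 77.7% in PBS, so low correlations cannot exclude pairing. Whether the libraries are paired is not known, and the Ccnd2 call with the replicate block depends on it. The p-value of that call also rests largely on spread pooled over genes. Genes called higher and lower, 0 and 3 as reported, became 148 and 49 with the replicate block, and 121 and 336 of 27659 with no filter. They were 3 and 40 with library size alone, 493 and 435 with DESeq2, 222 and 25 with limma-voom, and 723 and 37 with group weights. With DESeq2 size factors 7 were lower, and with single libraries left out 0 to 11 were lower. Scaling by library size alone shifted the median log2 fold of all genes by -0.17. DESeq2 called 2 further G1 and S phase genes higher and 1 lower.

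The sign turned for 5 genes whose folds were within their errors. Cdk6 was at 1.12 with the replicate block, 0.018 with upper-quartile factors, 0.14 with no filter, 0.66 with limma-voom and 0.87 with group weights, and ranged from -0.49 to 2.38 with single libraries left out. Cdkn2d was at 1.01, 0.15 and 0.61 with the replicate block, limma-voom and group weights, and from -1.57 to 3.67 with libraries left out. It was too low to be tested without EU replicate 2. Rb1 was at 0.084 with limma-voom and 0.061 with group weights, and from -0.41 to 0.23 with libraries left out. Ccnd3 ranged from -0.48 to 0.31 and Rbl2 from -0.36 to 0.16 with libraries left out. The cause was not tested. As shares of raw counts rather than counts per kilobase, Cdk4 made up 74.7% of its pair in EU and 82.4% in PBS, Cdkn1b 68.5% of the inhibitors in EU and Rb1 59.8% of the pocket protein genes in EU. Low PBS depth limits every fold here, and the PBS levels of Cdkn2d and Cdk6 rest on as few as 0 and 1 count in a library.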
